A study of Mus musculus with 15 samples.

Results

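The 8 genes described here are H2-K1, H2-D1, B2m, Tap1, Tap2, Tapbp, Erap1 and Nlrc5, which serve antigen presentation on MHC class I in the mouse. They were chosen by symbol for this role, and all 8 were found among the 23420 rows of the deposited expression table. All 8 were above 0 in at least 3 of the 15 libraries, the filter on low values that 11190 genes passed. Each library held RNA of 100 cells sorted from draining lymph nodes on day 12, with 3 libraries in each of 5 groups. In every group the cells descended from transferred CD45.1+ B cells carrying 1 copy of the B1-8hi knock-in, an antigen receptor for the hapten NP. The hosts were C57BL6 mice immunized with NP-CGG in CFA, an oil adjuvant.

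The first group, GC-PB, was plasmablasts derived from germinal centre (GC) cells and sorted as CD138hi CD44hi tdTomato+. Their donors carried B1-8hi (KI/+) with the S1pr2-ERT2cre Tg and with ROSA-Ai14 (KI/+), and the hosts received tamoxifen on days 6, 7 and 8. The tdTomato mark therefore covers cells in which the S1pr2-driven Cre was active at those times. The 4 other groups came from B1-8hi (KI/+) Bcl6-YFP (KI/+) donors, with no tamoxifen, and were GC B cells sorted as B220+ CD38lo GL7hi. Light zone cells were CXCR4lo CD86hi. Fraction 1 was their CD69hi Bcl6lo part, Fraction 2 the CD69hi Bcl6hi part and Fraction 3 the CD69lo Bcl6hi part. Dark zone cells (DZ) were CXCR4hi CD86lo. The comparisons were GC-PB vs Fraction 1, Fraction 1 vs Fraction 2, Fraction 2 vs Fraction 3, and the equal-weight mean of Fractions 2 and 3 vs DZ.

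MHC class I molecules show peptides from inside the cell to CD8 T cells. A heavy chain, encoded at H2-K1 or H2-D1 in the classical set, pairs with beta-2 microglobulin (B2m) in the endoplasmic reticulum (ER). The transporter made of Tap1 and Tap2 brings peptides in, tapasin (Tapbp) holds the empty heavy chain at the transporter, and the aminopeptidase Erap1 trims the peptides. Nlrc5 is a transactivator of class I genes, a relative of Ciita, which does the same for class II. Class I is carried by nearly all nucleated cells, B cells and plasma cells included, whereas plasma cells are known to switch off class II.

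A level below is the deposited signal scaled so that every library sums to 38594, the median total, with the ribosomal precursor Rn45s left out of the sum. Changes are log2 fold changes ± SE from limma on log2(level + 1), which understates the change of low genes. A gene was called where its p, adjusted by Benjamini-Hochberg over the 11190 genes, was under 0.05. The deposited total per library ran from 27942 to 115088. Of the values above 0, 91.0% to 92.6% were whole multiples of a constant particular to each library (tolerance 0.02 of the constant), and the totals stood for 184103 to 376992 such constants. This constant was 0.305 to 0.362 in the GC-PB and Fraction 1 libraries and 0.105 to 0.139 in the 9 others. The same 6 libraries carried Xist at a level of 8.94 to 14.4, and the 9 others listed it at 0. Only Fraction 1 vs Fraction 2 crosses this divide, and the divide and the fraction cannot be told apart there. Likewise genotype and tamoxifen cannot be told apart from the plasmablast state in GC-PB vs Fraction 1. The sorted identities were read from marker genes. Plasmablast markers summed to a level of 2851 to 4130 in GC-PB against 23.4 to 34.8 in Fraction 1, and GC markers to 0.826 to 0.985 against 12.8 to 19.5. T cell markers summed to at most 0.413, macrophage markers to at most 0.985 and stroma markers to at most 1.27 in any library. Dendritic cell markers were above 0 in every library, with sums of 2.695 to 3.388 in GC-PB and 1.44 to 1.82 in Fraction 1. Every Fraction 3 library had 3.71 or more. Of the 4 dendritic cell markers tested, 1 was called higher and 1 lower in GC-PB vs Fraction 1. Whether these values came from other cells was not tested.

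The genes lie at 4 places of the mm10 genome. Tapbp (chromosome 17, 33915899 to 33929292), H2-K1 (33996017 to 34000347), Tap1 (34187553 to 34197225), Tap2 (34203527 to 34216321) and H2-D1 (35262730 to 35267499) are in the MHC on chromosome 17. B2m is on chromosome 2 (122147686 to 122153083), Nlrc5 on chromosome 8 (94434356 to 94527272) and Erap1 on chromosome 13 (74639568 to 74693201). The proteasome genes Psmb9 and Psmb8 flank Tap1, and Psmb9 overlaps the start of Tap1 on the other strand. The RefSeq promoter table (GRCm38.p6) held 6 of the 8 genes; Tap2 and Nlrc5 had no entry. Shown are the bases before the start site for the 4 genes called higher in GC-PB vs Fraction 1, so that their control sequences can be read beside their values. Capitals mark matches, on either strand, to the letters of 4 motifs known from class I promoters.
H2-K1: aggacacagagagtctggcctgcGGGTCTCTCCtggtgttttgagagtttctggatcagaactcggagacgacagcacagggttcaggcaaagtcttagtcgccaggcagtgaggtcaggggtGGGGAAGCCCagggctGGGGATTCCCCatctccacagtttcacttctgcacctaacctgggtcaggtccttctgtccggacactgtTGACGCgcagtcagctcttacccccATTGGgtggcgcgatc
H2-D1: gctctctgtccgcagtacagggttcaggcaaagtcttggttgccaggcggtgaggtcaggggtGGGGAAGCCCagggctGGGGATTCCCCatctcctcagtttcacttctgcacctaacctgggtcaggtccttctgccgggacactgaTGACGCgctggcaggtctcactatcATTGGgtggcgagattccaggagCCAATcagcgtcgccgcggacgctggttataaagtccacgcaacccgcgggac
B2m: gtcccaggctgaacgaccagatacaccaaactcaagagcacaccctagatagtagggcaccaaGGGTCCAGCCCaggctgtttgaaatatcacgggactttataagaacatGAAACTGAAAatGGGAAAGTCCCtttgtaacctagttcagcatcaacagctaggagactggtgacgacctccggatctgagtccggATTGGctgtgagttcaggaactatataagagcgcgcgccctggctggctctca
Tapbp: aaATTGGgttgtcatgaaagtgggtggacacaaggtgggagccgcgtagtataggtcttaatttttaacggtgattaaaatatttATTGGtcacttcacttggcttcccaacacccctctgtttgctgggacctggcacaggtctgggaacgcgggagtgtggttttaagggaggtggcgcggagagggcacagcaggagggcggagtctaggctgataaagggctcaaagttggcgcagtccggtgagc
The stretches are chr17:34000348-34000597 on the minus strand (H2-K1), chr17:35262844-35263093 on the plus strand (H2-D1), chr2:122147437-122147686 on the plus strand (B2m) and chr17:33919228-33919477 on the plus strand (Tapbp). For H2-D1 and Tapbp the RefSeq start lies inside the span that GENCODE gives the gene, so that other start sites are annotated further upstream. RefSeq held 2 promoters for H2-K1, and the first was used, so that distances from its start depend on this choice.

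The motifs were the kappa B core (GGG, 5 bases, CC), the interferon response core (GAAA, 2 bases, GAAA), the X2 box core (TGACGC) and the Y box core (CCAAT). They were searched in the full window of 300 bases, 250 before to 50 after the start. The X2 box core, part of the enhanceosome site that Nlrc5 acts through, stood in H2-K1 at 41 to 36 bases before the start and in H2-D1 at 101 to 96 bases before it. Among all 27025 promoters 7.5% held it, and the other 4 members in the table did not. B2m had an interferon response core 139 to 130 bases before its start, and in Erap1 this core lay across the start site; 3.49% of all promoters held one. The kappa B core, found in 50.4% of all promoters, was present in H2-K1, H2-D1, B2m and Tap1. The Y box core, in 37.9% of all promoters, was present in these 4 and in Tapbp. H2-K1 and H2-D1 shared 89.5% of the aligned bases of the 2 windows, with their annotated starts at different points of the shared sequence. A match describes letters in the window and not a bound factor. Only these exact letters were searched, so variants of a core stay unmarked. A missing match therefore does not show that a site of that kind is absent, also in H2-K1 and H2-D1.

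**Figure D1:**
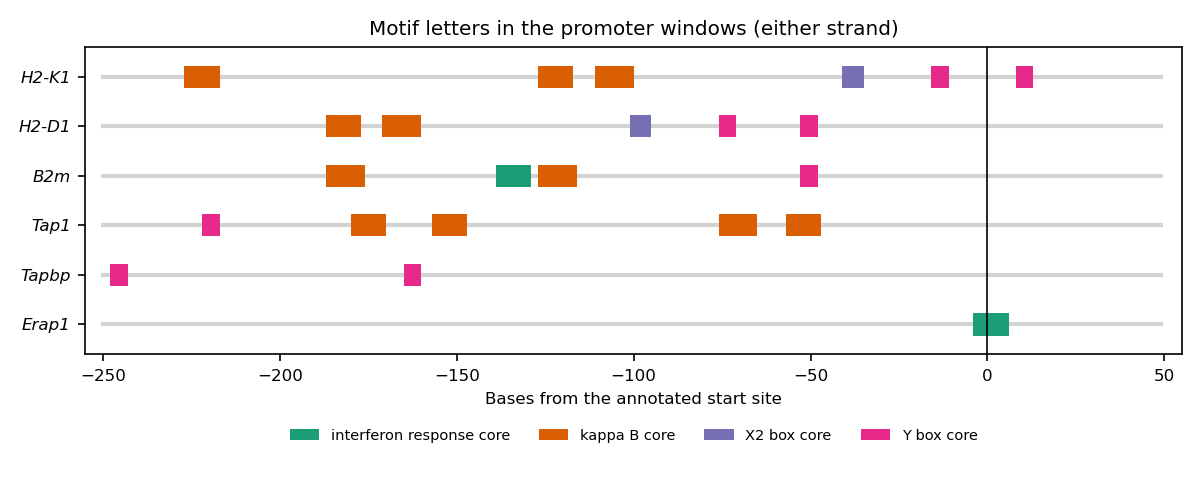
Matches to the 4 motif letters, on either strand, in the promoter windows of the 6 genes with a RefSeq entry, by distance in bases from the annotated start site (vertical line). By these exact letters, H2-K1 and H2-D1 share the order of kappa B, X2 box and Y box cores. B2m has an interferon response core beside a kappa B core, and Tapbp matches the Y box core alone. Variants of a core are not drawn.

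The light chain and both classical heavy chains had their highest levels in GC-derived plasmablasts, where each GC-PB library was above all GC B cell libraries. In GC-PB vs Fraction 1, 4 of the 8 genes were called higher (B2m, H2-D1, H2-K1 and Tapbp) and 0 lower, beside 36.3% of all tested genes called, 14.1% higher and 22.3% lower. The median change of the 8 was 0.63, against -0.058 over all tested genes. Tap1, Tap2, Erap1 and Nlrc5 were not called (limma). In these bulk libraries, fewer cells of a type and less RNA per cell cannot be told apart.

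B2m, the light chain shared by all class I molecules that need it, stood at 676, 435 and 558 in the GC-PB libraries, against 65.9, 74.3 and 68.7 in Fraction 1. Every GC-PB library was above every Fraction 1 library, and GC-PB replicate 2 was the lowest of its group. The change was 2.96 ± 0.12 (adjusted p = 1.05e-13), a ratio of mean levels of 7.99. B2m took 1.13% to 1.75% of the library total in GC-PB and 0.171% to 0.192% in Fraction 1. Across the other GC groups it ran from 56.2 to 75.7, with 75.7, 74.5 and 66.6 in Fraction 2, 60.2, 75.7 and 65.0 in Fraction 3, and 62.1, 56.2 and 65.2 in DZ. DZ lay below every library of Fraction 1 and Fraction 2 and overlapped Fraction 3, and Fractions 1, 2 and 3 overlapped each other; no comparison among the fractions called B2m at equal totals.

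H2-D1, a classical heavy chain, had 145, 122 and 114 in GC-PB, against 31.0, 32.9 and 30.8 in Fraction 1. Again no library of the GC-PB group came near the Fraction 1 range. The change was 1.97 ± 0.11 (adjusted p = 8.67e-12), a ratio of mean levels of 4.02. In the other groups it stayed in the Fraction 1 range or close to it, with 36.1, 30.3 and 32.8 in Fraction 2, 29.9, 33.8 and 27.4 in Fraction 3, and 27.7, 32.3 and 31.3 in DZ. No comparison among GC fractions called H2-D1, with changes of -0.062 (Fraction 1 vs Fraction 2), 0.12 (Fraction 2 vs Fraction 3) and 0.056 (Fractions 2 and 3 vs DZ).

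H2-K1, the other classical heavy chain, stood at 142, 108 and 121 in GC-PB, against 36.3, 33.3 and 40.8 in Fraction 1. The groups did not overlap, with a change of 1.72 ± 0.12 (adjusted p = 5.15e-10) and a ratio of mean levels of 3.36. Its mean was lower at each step of the order of groups, with 123.6 ± 16.98 in GC-PB, 36.8 ± 3.76 in Fraction 1, 29.0 ± 3.23 in Fraction 2, 23.7 ± 3.63 in Fraction 3 and 18.9 ± 0.969 in DZ (SD, n = 3 each). The libraries had 27.4, 32.7 and 26.9 in Fraction 2, 19.7, 26.9 and 24.5 in Fraction 3, and 19.4, 19.6 and 17.8 in DZ. Fraction 1 did not overlap Fraction 2, Fraction 2 overlapped Fraction 3, and DZ lay below every library of Fractions 2 and 3.

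**Figure D2:**
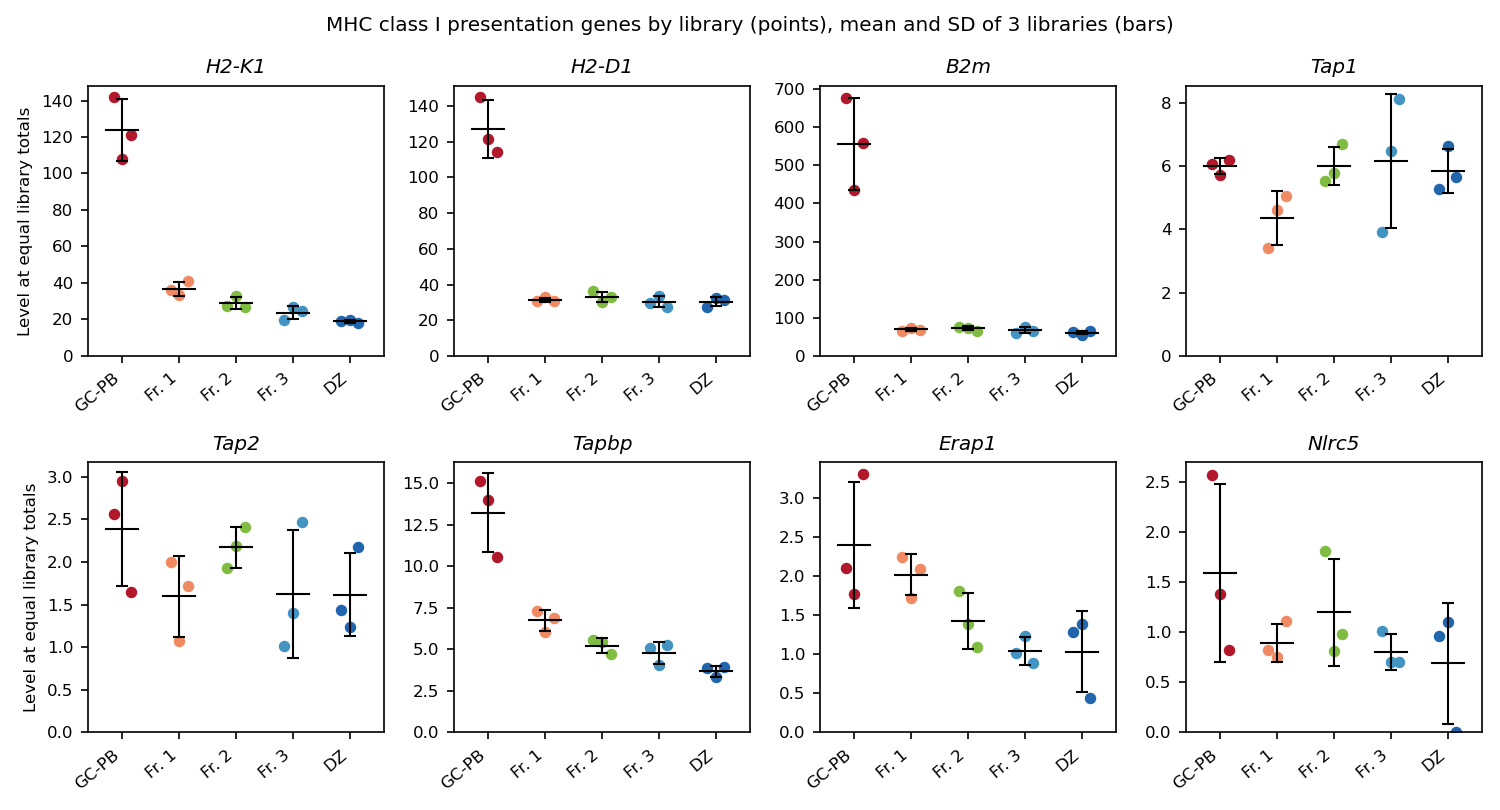
Level at equal library totals (linear axes from 0, each gene on its own scale) of the 8 genes in the 5 groups. Points are libraries and bars show mean and SD of 3. B2m, H2-D1 and H2-K1 stand apart in GC-PB, Tapbp is next, and in the other 4 genes the groups mostly overlap.

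H2-K1 and H2-D1 are near copies of each other and of other class I genes, and their values are uncertain for that reason. Their longest coding transcripts were 90.5% identical, and 8.79% of the 50-base windows of the H2-K1 transcript and 12.0% of those of H2-D1 recurred exactly in another class I gene. Their values were whole multiples of the library constant in 1 of 15 libraries each, whereas the 6 other members gave whole multiples in 15 of 15. The sources used here do not say how shared reads were assigned.

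Within a library, the ratio of B2m to the sum of H2-K1 and H2-D1 does not depend on the library scale. It was 2.35, 1.89 and 2.38 in GC-PB, against 0.979, 1.12 and 0.958 in Fraction 1. Every GC-PB library exceeded all other libraries, since Fraction 2 averaged 1.16 ± 0.0404, Fraction 3 1.24 ± 0.0214 and DZ 1.24 ± 0.140 (SD, n = 3 each). The difference between GC-PB and Fraction 1 was 1.19, with a two-sided exact permutation p of 0.1, the smallest that 3 libraries against 3 allow (0.267 after adjustment over the 8 ratio tests made). For H2-K1 to H2-D1 the ratio averaged 0.975 ± 0.0863 in GC-PB, 1.17 ± 0.154 in Fraction 1, 0.885 ± 0.170 in Fraction 2, 0.783 ± 0.117 in Fraction 3 and 0.626 ± 0.0677 in DZ. Fractions 2 and 3 vs DZ had the smallest p of its 4 tests, 0.0595 by the two-sided exact permutation test (adjusted 0.267), where 0.0119 was the smallest possible, and the libraries overlapped.

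**Figure D3:**
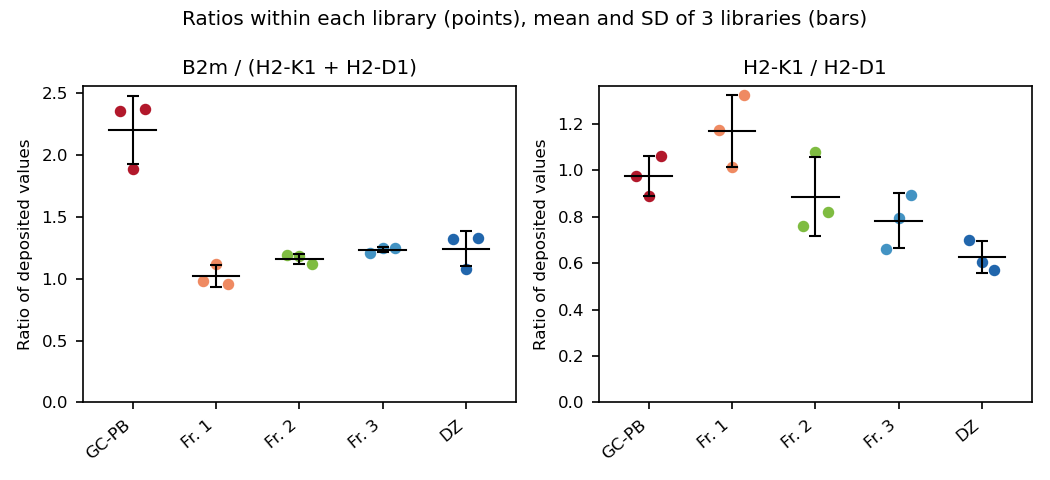
Ratios of deposited values within each library (points) for B2m to the sum of H2-K1 and H2-D1 and for H2-K1 to H2-D1, with mean and SD of 3 libraries, on linear axes from 0. The first ratio is 1.89 to 2.38 in GC-PB and at most 1.33 elsewhere.

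Of the genes for peptide supply and loading, Tapbp was the only member called. Tapbp, the bridge between transporter and heavy chain, had 15.1, 14.0 and 10.5 in GC-PB, against 7.29, 6.02 and 6.89 in Fraction 1. The groups did not overlap, and the change was 0.87 ± 0.15 (adjusted p = 9.23e-05), a ratio of mean levels of 1.96. On the deposited scale, without equal totals, it was 0.25 and not called (adjusted p = 0.201). Further down the order Tapbp had 5.54, 5.42 and 4.71 in Fraction 2, 5.06, 4.03 and 5.28 in Fraction 3, and 3.84, 3.31 and 3.91 in DZ. Fraction 1 lay above all Fraction 2 libraries (0.31, adjusted p = 0.238) and Fractions 2 and 3 above all DZ libraries (0.35, adjusted p = 0.207), but neither difference was called. With Fraction 1 added to the mean of Fractions 2 and 3, the change against DZ was 0.48 and called (limma adjusted p = 0.0168). That mean holds libraries from both sides of the divide.

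Tap1, the transporter subunit next to Psmb9, had 6.05, 5.71 and 6.20 in GC-PB, against 3.41, 4.62 and 5.05 in Fraction 1. The libraries did not overlap, but the change of 0.39 ± 0.19 was not called (adjusted p = 0.107). It was 0.67 and called with scaling by median ratios (adjusted p = 0.00865), 0.39 and called without Fraction 3 replicate 1 (adjusted p = 0.0498), and -0.20 on the deposited scale. Fraction 1 was also below Fraction 2, where Tap1 had 5.54, 5.77 and 6.67, without overlap and without a call (-0.39, adjusted p = 0.229). Fraction 3 had 3.91, 6.48 and 8.10, the widest spread of any group, and DZ had 5.29, 6.62 and 5.64, so that Fraction 1 was the group with the lowest mean. Because Psmb9 overlaps Tap1 at its start and the labels do not say that reads were counted by strand, a share of reads could belong to either gene.

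Tap2, Erap1 and Nlrc5 stood at the low end of the measured range. Tap2, the partner subunit, had 2.56, 2.96 and 1.65 in GC-PB, against 2.00, 1.07 and 1.72 in Fraction 1 (0.38 ± 0.23, adjusted p = 0.213). Its group means were 2.17 ± 0.241 in Fraction 2, 1.63 ± 0.752 in Fraction 3 and 1.62 ± 0.488 in DZ (SD, n = 3 each), and all neighbouring groups overlapped. Erap1 had 2.10, 1.77 and 3.30 in GC-PB, against 2.24, 1.72 and 2.09 in Fraction 1 (0.15 ± 0.22, adjusted p = 0.664). Erap1 averaged 1.43 ± 0.358 in Fraction 2, with 1.04 ± 0.175 in Fraction 3 and 1.03 ± 0.520 in DZ, again with overlap between neighbours. Its values came to 3 to 19 multiples of the library constant, so few molecules stand behind them if each multiple is 1 molecule.

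Nlrc5, the transactivator, had 2.56, 1.38 and 0.826 in GC-PB, against 0.824, 0.752 and 1.11 in Fraction 1. The groups overlapped, and the change of 0.40 ± 0.28 was not called (adjusted p = 0.293). Nlrc5 was listed at 0 in DZ replicate 3 and reached 15 multiples of the constant at most, in Fraction 2 replicate 1. Its means were 1.20 ± 0.533 in Fraction 2, 0.806 ± 0.179 in Fraction 3 and 0.688 ± 0.600 in DZ, and no neighbouring groups were separate.

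Among the GC fractions H2-K1 had the only call at equal totals, apart from that of Tapbp with Fraction 1 in the light zone mean. In Fractions 2 and 3 vs DZ, H2-K1 was the only one of the 8 called, higher, where 2.4% of all tested genes were called, 1.04% higher and 1.37% lower. H2-K1 averaged 26.4 ± 4.22 in the 6 libraries of Fractions 2 and 3 and 18.9 ± 0.969 in the 3 of DZ (SD), a change of 0.44 ± 0.11 (adjusted p = 0.0290). The call was lost when Fraction 2 replicate 2, Fraction 3 replicate 2, Fraction 3 replicate 3 or any of the 3 DZ libraries was left out, with changes of 0.40 to 0.47, and also with only these groups in the fit (adjusted p = 0.0690). All 8 changes were positive in this comparison, with a median of 0.17 against 0.0062 over all tested genes; Nlrc5 and Erap1 were below 0 without DZ replicate 3, H2-D1 without DZ replicate 1, and Tap1 without DZ replicate 1, Fraction 2 replicate 3 or Fraction 3 replicate 3.

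Fraction 2 vs Fraction 3, which separates CD69hi from CD69lo cells, called 0 of the 8 genes by limma, where 0.688% of all tested genes were called, 0.438% higher and 0.25% lower. At an unadjusted p under 0.05 there was 1, H2-K1, with 0.28 ± 0.12 (adjusted p = 0.388). The libraries overlapped for all 8 genes. All changes were positive, from 0.0077 (Tap1, which turned to -0.011 with median ratios) to 0.31 (Tap2), with a median of 0.18 against 0.00017 over all tested genes. On the deposited scale H2-K1 (0.69), B2m (0.53) and H2-D1 (0.53) were called higher. Fraction 1 vs Fraction 2 likewise called 0 of the 8 by limma, where 9.03% of all tested genes were called (3.79% higher, 5.25% lower), with 2 at an unadjusted p under 0.05. These were H2-K1 (0.34 ± 0.12, adjusted p = 0.104) and Tap1 (-0.39 ± 0.19, adjusted p = 0.229). The direction of B2m, H2-D1, Tap1, Tap2 and Nlrc5 in this comparison turned from lower at equal totals to higher on the deposited scale, and that of B2m and H2-D1 also with median ratios. On the deposited scale 7 of the 8 were called higher, where 6120 of all tested genes were, and with median ratios 1. H2-K1 was called higher on both alternative scales, with 0.45 for median ratios (adjusted p = 0.0295) and 1.77 for the deposited scale.

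**Figure D4:**
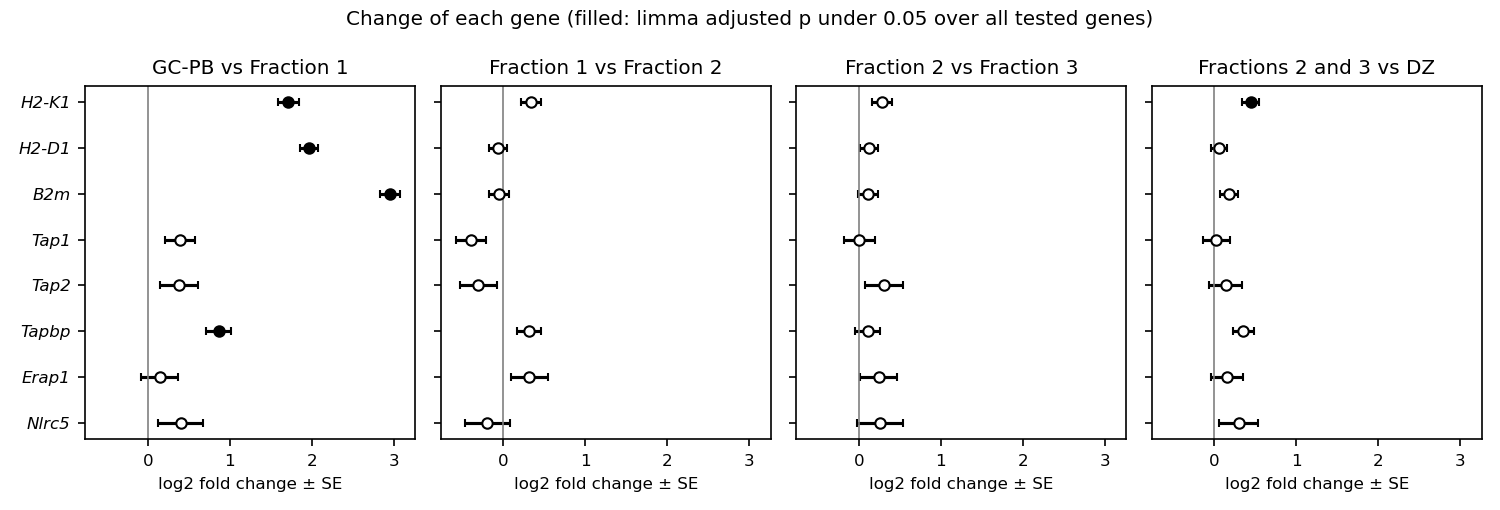
Log2 fold change ± SE of the 8 genes in the 4 comparisons, at equal library totals. Filled points passed an adjusted p of 0.05 in limma, which are B2m, H2-D1, H2-K1 and Tapbp in GC-PB vs Fraction 1 and H2-K1 in Fractions 2 and 3 vs DZ; the signs of B2m, H2-D1, Tap1, Tap2 and Nlrc5 in Fraction 1 vs Fraction 2, and of Tap1, Tap2 and Erap1 in GC-PB vs Fraction 1, turn on the deposited scale.

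Other class I chains were higher in GC-PB as well. Of 29 other listed class I and class I-like chains, 20 were tested. In GC-PB vs Fraction 1, 13 of them were called higher and 0 lower, where 14.1% of all tested genes were called higher. The 20 had a median change of 0.61, against -0.058 over all tested genes. Some of the 20 rest on few multiples of the library constant, with 1.17 to 1.55 in GC-PB for H2-Q6 and for H2-Q8. H2-T23, which encodes the Qa-1 molecule, averaged 17.8 ± 0.942 in GC-PB and 5.86 ± 1.13 in Fraction 1 (1.47 ± 0.14, adjusted p = 3.16e-08). H2-Q7 and H2-Q9 of the Qa-2 group changed by 1.75 ± 0.17 and 1.73 ± 0.17, but their values were identical in 12 of 15 libraries, and those of H2-T9 and H2-T22 in all 15, and those of H2-Q6 and H2-Q8 in 12, so that shared reads may stand behind each pair. With each of these 3 pairs counted once, 10 of 17 were called higher and 0 lower, with a median of 0.47. Shared sequence is not limited to the pairs. Of the 50-base windows, 40.8% in H2-T10 and 22.9% in H2-Q1 recurred exactly in another class I gene, against 0.576% in H2-M3 and 1.27% in H2-T24. Some of the 17 may therefore also hold shared reads. In the other comparisons 0 of the 20 were called by limma, and at an unadjusted p under 0.05 there was 1 in Fraction 1 vs Fraction 2, 3 in Fraction 2 vs Fraction 3 and 0 in Fractions 2 and 3 vs DZ. Over all tested genes 9.03%, 0.688% and 2.4% were called in these comparisons, in this order. On the deposited scale, with all 20 counted, 11 were higher and 1 lower in GC-PB vs Fraction 1. Of all 11190 tested genes, 1250 were higher and 5130 lower on that scale.

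ER chaperones that help load class I followed the same direction, with 3 of 4 called higher and 0 lower in GC-PB vs Fraction 1 (median 1.13). The share called higher over all tested genes was 14.1%. Calr, calreticulin, which binds the glycan of the heavy chain, had 110.1, 126 and 132 in GC-PB, against 22.7, 27.2 and 28.1 in Fraction 1. No library of another group was as high as those of GC-PB, and the change was 2.20 ± 0.13 (adjusted p = 1.35e-11). Pdia3, the disulfide isomerase ERp57 that is tied to tapasin, changed by 1.34 ± 0.19 (adjusted p = 6.75e-06). Tapbpl, a tapasin-like peptide editor, changed by 0.93 ± 0.18 (adjusted p = 0.000332) but by 0.41 on the deposited scale, where it was not called (adjusted p = 0.102). Canx, calnexin, was not called (0.065, adjusted p = 0.778). On the deposited scale 2 of the 4 were called higher and 1 lower, where 1250 of all 11190 tested genes were called higher and 5130 lower. Calr was also the only one of the 4 called in Fractions 2 and 3 vs DZ, with 22.99 ± 2.03 in Fractions 2 and 3 and 14.7 ± 2.83 in DZ (0.62 ± 0.11, adjusted p = 0.00175). Over all tested genes 1.04% were called higher in that comparison.

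The listed immunoproteasome, activator and peptidase genes were mostly lower or not called at the plasmablast step. There 22.3% of all tested genes were called lower and 14.1% higher. Of the immunoproteasome and its activator, 2 of 5 were called lower in GC-PB vs Fraction 1 and 1 higher, with a median of -0.15. On the deposited scale 0 were called higher and 5 lower, and with median ratios 2 and 2. The called-lower genes were the activator subunits Psme1 (-0.83 ± 0.12, adjusted p = 1.75e-05) and Psme2 (-0.73 ± 0.15, adjusted p = 0.000545). Psmb8, a catalytic immunoproteasome subunit, was called higher at 0.24 ± 0.093 (adjusted p = 0.0490), was -0.44 on the deposited scale, and lost its call in 18 of the 23 alternatives. Of 7 listed peptidases, which do not include Erap1, 4 were lower and 0 higher (median -0.70), led by Thop1 (-1.16 ± 0.18), Npepps (-0.78 ± 0.19) and Lnpep (-0.74 ± 0.20). The deposited scale gave 6 lower and 0 higher, and median ratios 3 lower and 1 higher. Npepps lost its call with only the groups compared (adjusted p = 0.0547). Before the plasmablast stage, Psme2 was higher in Fraction 1 than in Fraction 2 (0.72 ± 0.15, adjusted p = 0.00374), and so were the peptidases Lap3 (0.78 ± 0.20, adjusted p = 0.0191) and Thop1 (0.68 ± 0.18, adjusted p = 0.0216). Lap3 lost its call when replicate 2 of Fraction 1 was left out, and when replicate 2 or replicate 3 of Fraction 2 was (adjusted p = 0.0697 to 0.0930). Thop1 lost its call with only the groups compared (adjusted p = 0.101) and when replicate 3 of Fraction 1, or replicate 1 or 3 of Fraction 2, was left out (adjusted p = 0.0607 to 0.128). Of the 7 peptidases 2 were called in this comparison, but 1 when replicate 2 or 3 of Fraction 1, or replicate 1 or 2 of Fraction 2, was left out, and 0 without Fraction 2 replicate 3 (limma). Over all tested genes 3.79% were called higher and 5.25% lower in Fraction 1 vs Fraction 2. Psme2 kept its call in all alternatives.

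Factors known to act at class I promoters were lower or not called in GC-PB vs Fraction 1, with 8 of 16 lower, 0 higher and a median of -0.56. Of all tested genes, 22.3% were called lower there. Irf8, an interferon regulatory factor of GC B cells, averaged 1.83 ± 1.45 in GC-PB and 23.9 ± 2.39 in Fraction 1 (-3.25 ± 0.21, adjusted p = 6.80e-11). Nfkb1, the p50 subunit that binds kappa B sites, changed by -1.93 ± 0.15 (adjusted p = 9.40e-10). Ezh2, a histone methyltransferase known to repress class I genes in tumours, changed by -1.92 ± 0.18 (adjusted p = 3.33e-08). Nfkb1 was higher in Fraction 1 than in Fraction 2 (0.67 ± 0.15, adjusted p = 0.00555). It was the only one of the 16 called there, where 3.79% of all tested genes were called higher and 5.25% lower. By median ratios 6 of the 16 were lower and 1 higher in GC-PB vs Fraction 1, and on the deposited scale 13 and 0. On the deposited scale 5130 of all 11190 tested genes were called lower.

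Of the interferon response genes, 25 of 30 were tested, and 14 were higher and 2 lower in GC-PB vs Fraction 1 (median 0.58), against 12 and 5 on the deposited scale. Over all tested genes 14.1% were called higher and 22.3% lower at equal totals. Isg20, an interferon-induced exonuclease, averaged 18.3 ± 1.14 in GC-PB and 0.614 ± 0.110 in Fraction 1 (3.58 ± 0.23, adjusted p = 7.25e-11). Bst2, tetherin, changed by 2.91 ± 0.22 (adjusted p = 9.57e-10). Ddx58, the RNA sensor RIG-I, changed by 2.13 ± 0.19 (adjusted p = 1.27e-08). In the 3 comparisons among GC fractions 0 of the 25 were called by limma, with 4 at an unadjusted p under 0.05 in Fraction 1 vs Fraction 2, 2 in Fraction 2 vs Fraction 3 and 0 in Fractions 2 and 3 vs DZ. Over all tested genes 9.03%, 0.688% and 2.4% were called in these comparisons, in this order. With shares so small in the last 2, a count of 0 there does not set these genes apart.

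MHC class II genes went the opposite way to class I at the plasmablast step. Of 11 tested, 10 were lower and 0 higher in GC-PB vs Fraction 1, with a median change of -1.93. Over all tested genes 22.3% were called lower. H2-Aa, a class II chain, averaged 15.9 ± 3.25 in GC-PB and 97.1 ± 7.83 in Fraction 1 (-2.55 ± 0.12, adjusted p = 5.41e-13). H2-Eb1 changed by -2.31 ± 0.13 and H2-Ab1 by -1.47 ± 0.10. Ciita was listed at 0 in all 3 GC-PB libraries and had 5.18, 5.27 and 4.68 in Fraction 1, whereas Nlrc5 was above 0 in all 6 of these libraries. In Fractions 2 and 3 vs DZ both classes had called genes in the same direction, H2-K1 among the 8 class I genes and 6 of the 11 class II genes, led by H2-Aa (0.74 ± 0.10), H2-Ab1 (0.56 ± 0.086) and H2-Oa (0.97 ± 0.18). Over all tested genes 1.04% were called higher there. In Fraction 1 vs Fraction 2, 4 class II genes were lower at equal totals, where 5.25% of all tested genes were. They were led by H2-Ob (-0.96), Ciita (-0.71) and H2-Eb2 (-0.84). On the deposited scale these 3 were above 0 and 9 of the 11 were called higher, where 6120 of all 11190 tested genes were. The count of class II genes called lower was 1 with median ratios. It was also 1 when replicate 1 or 2 of Fraction 1, or replicate 2 or 3 of Fraction 2, was left out, and 2 without Fraction 2 replicate 1. Ciita lost its call with median ratios (adjusted p = 0.0591) and without any 1 of the 6 libraries compared (adjusted p = 0.0515 to 0.0986). H2-Eb2 lost its call with median ratios (adjusted p = 0.0591), with only the groups compared (adjusted p = 0.0581) and without any 1 of these libraries but Fraction 1 replicate 3 (adjusted p = 0.0524 to 0.135). H2-Ob kept its call in all alternatives but the deposited scale.

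**Figure D5:**
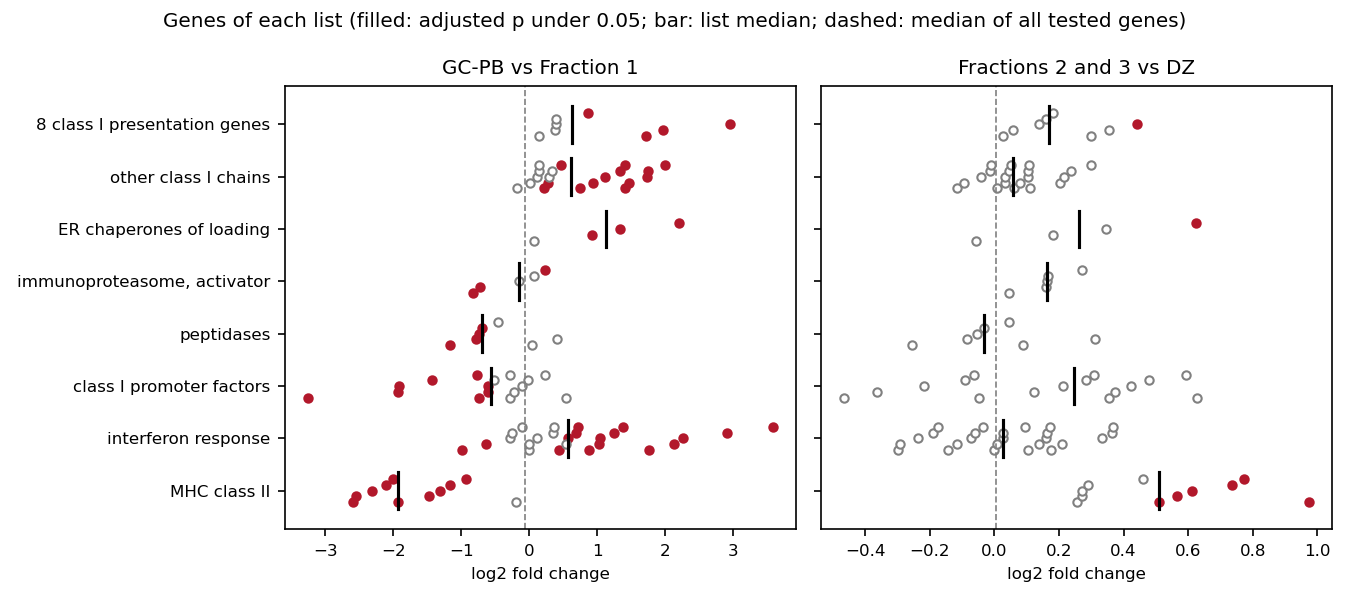
Log2 fold change of each tested gene by list (points, filled where the limma adjusted p was under 0.05) in GC-PB vs Fraction 1 and in Fractions 2 and 3 vs DZ, with the list median (bar) and the median of all tested genes (dashed). At the plasmablast step class I chains and ER chaperones lie mostly right of 0 and class II genes left of it; against DZ the class II genes lie right of 0.

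Over the 15 libraries the chains and tapasin varied together, and the rest did not join them closely. On log2(level + 1), Pearson's r was 0.99 for H2-D1 with B2m, 0.95 for H2-K1 with B2m, 0.94 for H2-K1 with H2-D1 and 0.96 for H2-K1 with Tapbp. Tap1 had r of 0.072 with H2-K1 and 0.18 with B2m, and its r with its partner Tap2 was 0.37. Erap1 reached 0.73 with H2-K1, and Nlrc5 at most 0.55 with any member. These values describe 15 libraries in which the 3 GC-PB libraries stand far from the others, and they share the library total as a scale. Among 5595 genes with a mean level of at least 0.963, those most like B2m were Selm (1.00), Sdc1 (0.99) and Ly6c2 (0.99). The most like H2-D1 were Prdm1, Fkbp11 and Ly6c2 (0.99 each), the most like H2-K1 were Hspa5, Srp54c and H2-Q9 (0.98 each), and the most like Tapbp were Hspa5 (0.97), Sdf2l1 (0.97) and Slc3a2 (0.96). Tap1, Tap2, Erap1 and Nlrc5 had weaker likeness to any gene. For Tap1 the closest were Tmem127 (0.83), Rhobtb2 (0.77) and Arfgef2 (0.77), and for Tap2 Arl6ip5 (0.76), Mdm2 (0.71) and Rnf26 (0.70). Erap1 was closest to Mmadhc (0.87), Got1 (0.86) and Uqcrq (0.85), and Nlrc5 to Cdk11b (0.85), Slc16a6 (0.78) and Bin2 (0.76).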

How the data were processed

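The authors sorted 100 cells per library and tagged cDNA with molecular barcodes after adding ERCC spike-in RNA to each tube, per the labels' protocols. Reads were handled with TopHat2 against mm10, per the submitters' processing notes (version not given). What they deposited is a signal for 23420 genes in 15 libraries; its scaling is not given in the sources used here, and values are read as a constant per library times a number of molecules. The replicates are independent library preparations, per the labels; the spread behind p-values is that of library preparations and may be technical. No pair of libraries was identical (highest Spearman correlation 0.939).

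The signal was scaled to equal library totals without Rn45s, and 11190 genes with a value above 0 in 3 or more libraries entered limma 3.58.1 (R 4.3.3, intensity trend) as log2(value + 1), fitted with a mean for each of the 5 groups. Counting models were not used, since the values are not whole. The fit was tested on simulated data with the replicate spread of these libraries; it recovered most changed genes but called unchanged ones more often than the nominal rate, and more so at equal totals than at known depth, so calls near the threshold are less certain than their adjusted p. For ratios within a library, two-sided exact permutation tests were used. The 8 genes, the gene lists and the tests were chosen with earlier results of these data known. Named were the 8 members, up to 3 called genes with the smallest p per list and comparison, and the 3 genes most correlated with a member; Canx, H2-T9, H2-T22, Xist and, in GC-PB vs Fraction 1, Ciita are named outside this rule, after their values were seen. Alternatives were the deposited scale, median ratios, pseudocounts of 0.5 and 2, no filter or a filter of 8 libraries, a replicate block, only the groups compared, Fraction 1 in the light zone mean, and each library left out. Promoters came from RefSeq (GRCm38.p6) and positions from GENCODE on mm10. Python 3.11.15, Biopython 1.88 and matplotlib 3.10.9 were used.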

Additional observations from a re-analysis of the deposited data

How the results depend on the processing

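With the deposited scale the median of all tested genes moved to -0.42 (GC-PB vs Fraction 1), 0.64 (Fraction 1 vs Fraction 2), 0.15 (Fraction 2 vs Fraction 3) and 0.05 (Fractions 2 and 3 vs DZ), and genes called numbered 6380 (1250 higher, 5130 lower), 6183 (6120 and 63), 301 (299 and 2) and 127 (89 and 38). At equal totals they numbered 4064 (1573 higher, 2491 lower), 1011 (424 and 587), 77 (49 and 28) and 269 (116 and 153), and with median ratios 4048 (2085 and 1963), 910 (519 and 391), 44 (24 and 20) and 222 (94 and 128). The replicate block gave 40 in Fraction 2 vs Fraction 3, and only the groups compared gave 0 by limma (1414 at an unadjusted p under 0.05); Fraction 1 in the light zone mean gave 981. Leaving out a library gave 3497 to 4077, 551 to 1218, 17 to 166 and 145 to 346, in the order above.

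B2m, H2-D1 and H2-K1 kept their calls in GC-PB vs Fraction 1 in all alternatives (deposited scale 2.27, 1.29 and 1.04), and Tapbp in all but the deposited scale. Signs turned on the deposited scale in Fraction 1 vs Fraction 2 for B2m (1.39), H2-D1 (1.37), Tap1 (0.88), Tap2 (0.73), Nlrc5 (0.67), Ciita (0.58), H2-Eb2 (0.37) and H2-Ob (0.37), and in GC-PB vs Fraction 1 for Psmb8 (-0.44), Erap1 (-0.40), Tap1 (-0.20) and Tap2 (-0.090). With median ratios they turned for B2m (0.058) and H2-D1 (0.047) in Fraction 1 vs Fraction 2 and for Tap1 (-0.011) in Fraction 2 vs Fraction 3, and with Fraction 1 in the light zone mean for Tap1 (-0.10). Leaving out a library gave ranges across 0 for Erap1 (-0.038 to 0.28) in GC-PB vs Fraction 1, H2-D1 (-0.12 to 0.0012) in Fraction 1 vs Fraction 2, Tap1 (-0.24 to 0.20) in Fraction 2 vs Fraction 3, and Erap1 (-0.073 to 0.29), H2-D1 (-0.0083 to 0.10), Nlrc5 (-0.043 to 0.49) and Tap1 (-0.071 to 0.15) in Fractions 2 and 3 vs DZ. The cause of these turns was not tested. Same-numbered libraries did not deviate together, with correlations of -0.043 to 0.039 in 30 pairs, so numbers do not pair them; the block changed the count of calls by over 1.5 times only in Fraction 2 vs Fraction 3. Tap2, Erap1 and Nlrc5 rest on few multiples of the library constant.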
